A study of Mus musculus with 2 samples.

Results

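The miRNAs described here come from 8 hairpins that are made without the nuclear enzyme Drosha or have been listed with such hairpins: Mir320, Mir484, Mir877, Mir1224, Mir1981, Mir702, Mir5107 and Mir3102. They were taken by name from the 1174 named mouse miRNA hairpins of GENCODE vM21, of which 545 had a read in the data. A read belonged to a hairpin when its sequence matched the hairpin's sense strand from end to end, or with up to 3 unmatched bases at its 3′ end. Of the 8 hairpins, 5 had at least 50 reads over both libraries, 2 had fewer, and Mir1224 had none. The study sequenced small RNA from dendritic cells that had been derived from C57BL/6 bone marrow in 7 days of culture with the cytokines GM-CSF and IL-4. The cells had been given LPS (lipopolysaccharide), a bacterial cell wall component that these sentinel cells of the immune system detect. Both libraries share that strain, culture and stimulation. They differ in the fraction: 1 nuclear library came from the pellet that held the nuclei after swelling in a buffer with the detergent NP40, and 1 cytoplasmic library came from the rest. No unstimulated library was analysed here, and neither dose nor duration of LPS is stated in the sources used here.

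Most miRNAs begin as a long nuclear transcript from which Drosha and its partner Dgcr8 cut a hairpin, and Dicer in the cytoplasm then removes the loop. Mirtrons skip the first cut: the hairpin is a short intron, the spliceosome releases it as a lariat, the debranching enzyme opens it, and Dicer finishes it. Tailed mirtrons have 1 end at a splice site and carry extra intron bases beyond the other end of the hairpin. Mir320 and Mir484 are known examples of another route, in which transcription itself starts at the hairpin's 5′ end, so that the precursor carries a cap and leaves the nucleus through the exporter Xpo1. The seed, bases 2 to 8 of a mature miRNA, pairs with target mRNAs, so the exact 5′ start of a read sets what the miRNA can recognise.

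The annotation separated the hairpins by position on GRCm38, the assembly also called mm10. Mir877 (chr17:35960730-35960814, minus strand) coincided with a whole intron of 85 bases of Abcf1, an ATP-binding protein of translation. Mir1981 (chr1:184822407-184822488, minus strand) coincided with a whole intron of 82 bases of Marc2, a mitochondrial reductase gene. Mir484 (chr16:14159626-14159692, plus strand) lay in no intron on its own strand but opposite the transcripts of Marf1, with the start of 1 Marf1 transcript 359 bases away. The hairpins of these 3 are shown because their ends carry the difference between the routes. Letters are 5′ to 3′ on the hairpin's strand, and capitals mark the commonest read in these libraries.
Mir877: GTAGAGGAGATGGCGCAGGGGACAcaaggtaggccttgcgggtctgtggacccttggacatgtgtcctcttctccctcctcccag
Mir1981: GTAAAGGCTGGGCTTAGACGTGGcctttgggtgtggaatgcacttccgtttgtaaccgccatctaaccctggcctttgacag
Mir484: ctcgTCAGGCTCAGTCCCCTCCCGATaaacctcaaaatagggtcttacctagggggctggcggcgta
Mir877 and Mir1981 open with the GT and close with the AG of an intron, and the commonest read of each begins at the first base. Mir484 has neither, and its commonest read begins at base 5.

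RefSeq mature sequences, with GRCm38.p6 coordinates, were found for 6 of the 8 hairpins and gave 13 mature forms with 12 distinct seeds. Those of the main arms are shown with the seed in capitals, because the seed is what sets these miRNAs apart in targeting.
miR-1981-5p: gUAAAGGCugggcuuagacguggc
miR-877-5p: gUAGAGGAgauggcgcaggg
miR-702-5p: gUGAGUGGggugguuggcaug
miR-1224-5p: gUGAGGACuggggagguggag
miR-3102-3p: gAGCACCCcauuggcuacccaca
miR-484: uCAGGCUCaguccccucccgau
The only seed held by 2 of the 13 forms was UGAGUGG, which miR-702-5p shared with miR-3102-5p. Both of these begin at the first base of an intron, and no read of miR-3102-5p was found.

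The other whole-intron members were Mir1224 (chr16:20604452-20604536, plus strand), an intron of 85 bases of Vwa5b2, and Mir3102 (chr7:100882306-100882409, minus strand), an intron of 104 bases of Arhgef17. Mir702 (chr5:136991433-136991541, plus strand) was offset from an intron of 102 bases of Plod3, a collagen-modifying enzyme. It began 9 bases before the intron and ended 2 bases before the intron's end. Mir320 (chr14:70443510-70443591, plus strand) overlapped no other transcript, and its 5′ end lay 63 bases from the start of Polr3d, an RNA polymerase III subunit gene on the opposite strand.

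The nuclear library held 2000019 reads and the cytoplasmic library 2041383, recovered from values in RPM (reads scaled to a common total), so that 1 read was worth 0.5 RPM in the former and 0.490 RPM in the latter. Each fraction was sequenced once, so there is no replicate check of any difference and no p-value is given. Exact 95% intervals cover counting error only, as the reads carry no molecular identifiers and copies of 1 molecule cannot be told from separate molecules. In these bulk fractions, fewer cells of a type and less RNA per cell cannot be told apart. All miRNA hairpins together took 39.8% of nuclear and 74.6% of cytoplasmic reads, so RPM ratios shift with what else a library holds. Myeloid marker miRNAs (4 of 4 detected) summed to 8435 RPM in the nuclear library and 8594 RPM in the other. Among markers of other cells, the hepatocyte miRNA miR-122 stood at 143 and 11.8 RPM and the muscle list (miR-1a and miR-133a, both detected) at 55.0 and 3.43 RPM. The stromal (3 of 3 mature names) and epithelial (4 of 4) lists stood at 349 and 89.0 RPM in the nuclear and 299.8 and 187 RPM in the cytoplasmic library. The erythroid, endothelial and lymphoid lists were at most 3.50 RPM in either library, with 1 of the 2 erythroid markers at 0. Of the neural list miR-124 was at 0 and miR-9, which LPS is known to induce in myeloid cells, stood at 497 and 1029 RPM.

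The 8 hairpins gave 7420 nuclear and 10873 cytoplasmic reads, or 0.932% and 0.714% of the miRNA reads. Mir320 and Mir484, the hairpins outside introns, held 87.8% of them, the 4 whole-intron hairpins 11.1%, and Mir702 and Mir5107 1.12%. By reads over both libraries, miR-320-3p ranked 23 and miR-1981-5p 55 among the 214 miRNA arms with at least 50 reads. An arm here is the 5′ (5p) or 3′ (3p) side of a hairpin with all its reads summed. The ranks of miR-484-5p, miR-5107-5p and miR-877-5p were 118, 128 and 133.

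**Figure D1:**
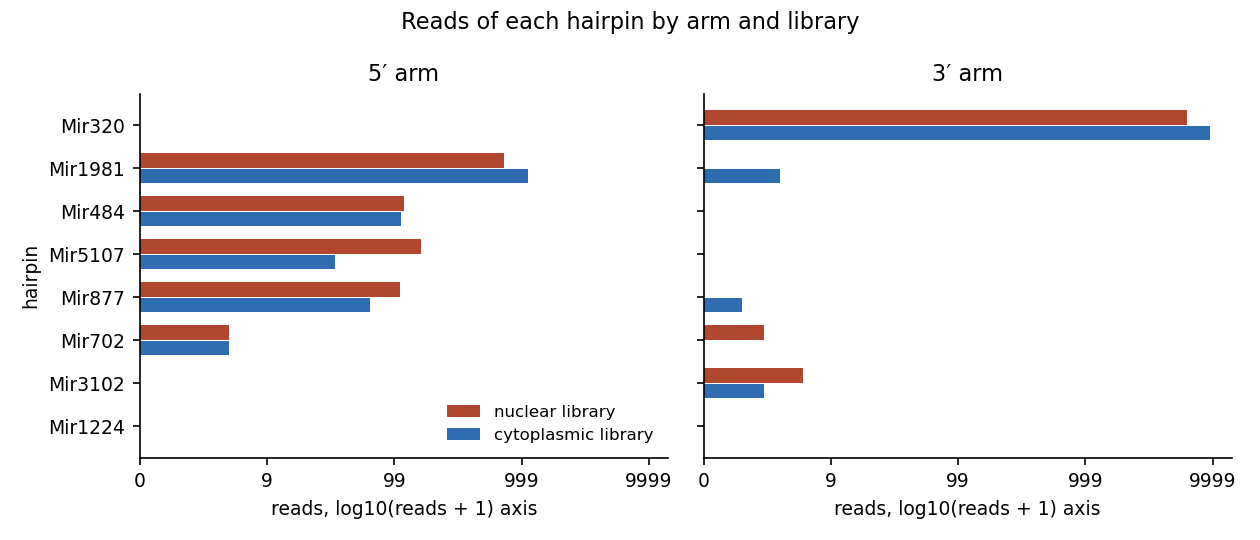
Reads of each hairpin (vertical axis) on its 5′ arm and 3′ arm, on an axis of log10(reads + 1), with 1 bar per library. Mir320 has bars on the 3′ arm only, Mir484 and Mir5107 on the 5′ arm only, and Mir1224 has none.

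Of the 7 hairpins with reads, 4 gave a single arm and 3 gave both. Mir320 gave 15825 reads of its 3′ arm and 0 of its 5′ arm, which allows a 5p share of up to 0.0190% (3 reads of the total). Mir484 was the reverse, with 231 reads of its 5′ arm and 0 of the other, a 3p share of up to 1.30%. The mirtrons also gave the arm that begins at the 5′ splice site: Mir1981 gave 1849 reads of 5p and 3 of 3p, and Mir877 gave 172 and 1. All 4 of those 3p reads were in the cytoplasmic library. Mir5107 gave 195 reads of 5p and 0 of 3p, a 3p share of up to 1.54%. Mir702 gave 8 reads of 5p and 2 of 3p. Mir3102 was the exception among the whole-intron hairpins, with 7 reads that were all of the 3′ arm. No read extended 6 or more bases to both sides of a hairpin's middle, the rule used for loop reads, but 1 nuclear read of Mir320, matched from base 36 to base 55 of 82, spanned the middle and was counted with the 3′ arm.

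In level, miR-320-3p had 6288 nuclear reads (3144 RPM, interval 3067 to 3223) and 9537 cytoplasmic reads (4672 RPM, 4579 to 4767). The level of miR-1981-5p was 365 RPM in the nuclear library (731 reads) and 548 RPM in the cytoplasmic library (1118 reads). In both arms the cytoplasmic level was the higher, by nearly the same ratio. For miR-484-5p the libraries held 119 nuclear reads (59.5 RPM) and 112 cytoplasmic reads (54.9 RPM), which overlap in their intervals. The mirtron miR-877-5p had 109 nuclear reads (54.5 RPM) and 63 cytoplasmic reads (30.9 RPM). For miR-5107-5p the counts were 162 nuclear reads (81.0 RPM) and 33 cytoplasmic reads (16.2 RPM). In the nuclear library the order was thus miR-320-3p, miR-1981-5p, miR-5107-5p, miR-484-5p and miR-877-5p, and in the cytoplasmic library miR-5107-5p came last. Within the nuclear library miR-5107-5p stood at 1.36 times miR-484-5p (1.07 to 1.74, exact conditional interval), and miR-484-5p at 1.09 times miR-877-5p (0.835 to 1.43), so that only the latter pair of neighbours could not be told apart by counting error. In the cytoplasmic library the interval of every neighbouring pair excluded 1.

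Relative to the cytoplasmic library, 1 of the 5 measured arms was called higher in the nuclear library and 0 were called lower. A call needs a ratio of at least 2-fold and an exact 95% interval that excludes 1. Over all 214 miRNA arms, 11.2% were called higher and 28.0% lower, and over all 915 small RNAs 39.8% were higher and 11.6% lower. A single call among 5 arms is not set apart from those shares. The called arm was miR-5107-5p, at 5.01 times its cytoplasmic level (3.43 to 7.52). The mirtron miR-877-5p stood at 1.77 (1.28 to 2.45), an interval above 1 but a ratio short of 2-fold. The ratio of miR-484-5p was 1.08 (0.831 to 1.42). Those of miR-320-3p, 0.673 (0.652 to 0.695), and miR-1981-5p, 0.667 (0.607 to 0.733), lay below 1 and short of 2-fold. The order of the arms is the same under any library scaling, but the sign is not. With TMM factors (trimmed mean of M values) miR-320-3p and miR-1981-5p were at -1.02 and -1.03 on the log2 scale and called lower, whereas scaled to the miRNA total they stood at 0.34 and 0.32, above 0. On the same scales miR-484-5p stood at -0.33 and 1.02. The arms miR-877-5p and miR-5107-5p were above 0 under all scalings tried. The interval of miR-877-5p included 1 with TMM factors, at 1.30 (0.942 to 1.80), and with the median of ratios, at 1.21 (0.882 to 1.68).

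The median log2 ratio of the 5 member arms was 0.12, against -0.64 for the 209 other arms, and all 5 lay above the median of the others. Of those 209 arms, 115 had a lower log2 ratio than miR-320-3p and 114 a lower one than miR-1981-5p, so both sat near the middle. For miR-484-5p the count was 168, for miR-877-5p 183, and for miR-5107-5p 195. The hepatocyte and muscle marker miRNAs were also higher in the nuclear library, and their part in the ratios of miR-877-5p and miR-5107-5p was not tested. By total reads within 2-fold and log2 ratio, the arm nearest to miR-320-3p was miR-24-3p (10633 nuclear and 16932 cytoplasmic reads, log2 ratio -0.64 against -0.57). The arm nearest to miR-1981-5p was miR-147-3p (724 and 1119 reads, -0.60 against -0.58). These likenesses are over 2 libraries only.

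**Figure D2:**
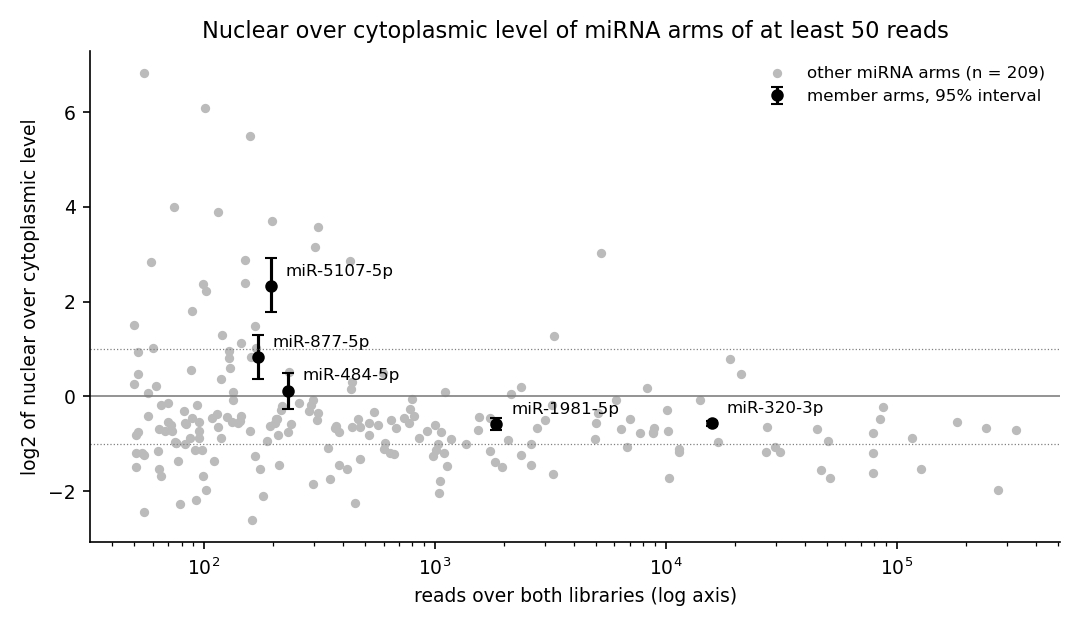
Log2 of the nuclear over the cytoplasmic level (vertical axis) against reads over both libraries (log axis) for the 214 miRNA arms of at least 50 reads, with member arms in black and their exact 95% intervals, and dotted lines at 2-fold. The members with most reads, miR-320-3p and miR-1981-5p, lie within the bulk of the 209 other arms, and miR-5107-5p, at 5.01-fold, lies above it.

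The 5′ starts were sharpest in Mir1981. Of 1849 reads of miR-1981-5p, 1848 (99.9%) began at base 1, the first base of the Marc2 intron, and the remaining read at base 2. For miR-484-5p, 228 of 231 reads (98.7%, 96.3 to 99.7) began at base 5. The share at the commonest start was lower in miR-877-5p, at 81.4% (74.8 to 86.9) on the first base of the Abcf1 intron. A further 29 reads of this mirtron began at base 2 and 3 at base 3. The share of miR-320-3p was 88.2% (87.7 to 88.7), at base 48 of the hairpin, with 237 reads at base 47, 1206 at base 49 and 422 at base 50. The lowest was miR-5107-5p, with 69.7% (62.8 to 76.1) at base 10 and 58 of its 195 reads at base 11. Among the 209 other arms the median share was 97.8% and the lower quartile 88.1%, so miR-877-5p and miR-5107-5p lay below that quartile.

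**Figure D3:**
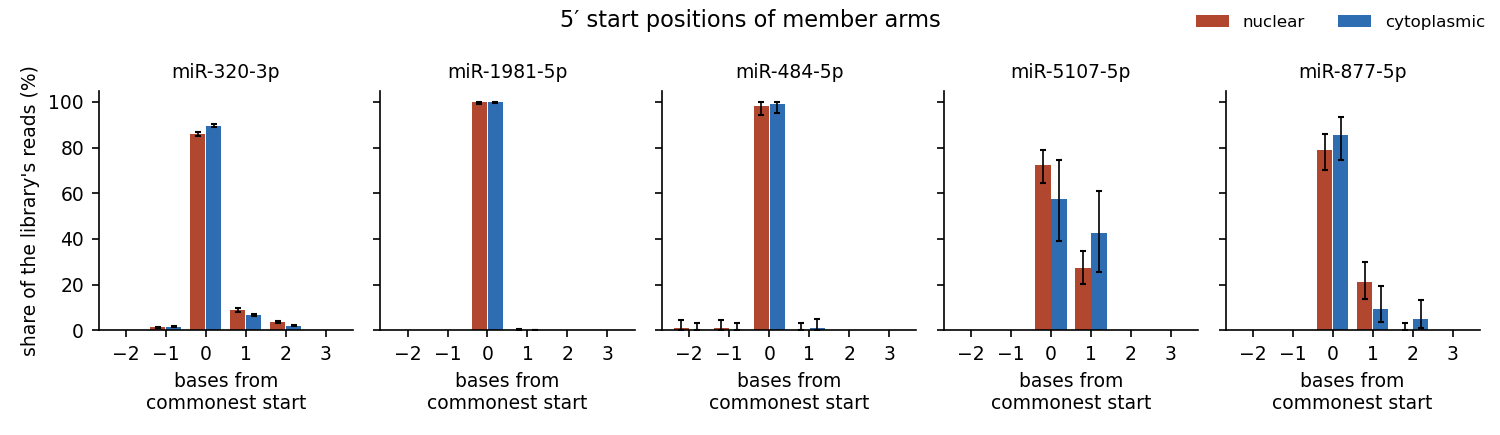
Share of each library's reads (vertical axis, %, with exact 95% intervals) that begin at each base from 2 before to 3 after the commonest start, for the 5 arms of at least 50 reads. Starts of miR-1981-5p and miR-484-5p are confined nearly to 1 base, while miR-5107-5p has 69.7% of reads at the commonest start and most of the rest 1 base later.

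A start 1 base later moves the seed. For miR-877-5p the first 20 bases from each start are shown with the seed in capitals.
miR-877-5p from base 1: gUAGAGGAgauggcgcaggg
miR-877-5p from base 2: uAGAGGAGauggcgcagggg
The first form had 86 nuclear and 54 cytoplasmic reads, and the second 23 and 6. The second form made up 21.1% of the arm's nuclear and 9.52% of its cytoplasmic reads, with intervals of 13.9 to 30.0% and 3.58 to 19.6% that overlap.

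In miR-320-3p the nuclear over cytoplasmic ratio differed between reads of different starts. Reads from base 47 numbered 81 nuclear and 156 cytoplasmic, a ratio of 0.530 (0.40 to 0.698). Reads from base 48 numbered 5411 and 8544, a ratio of 0.646 (0.625 to 0.669). From base 49 there were 561 and 645, at 0.888 (0.791 to 0.996), and from base 50 there were 233 and 189, at 1.26 (1.03 to 1.53). The intervals of bases 48, 49 and 50 do not overlap. A library-wide scaling would move all of these ratios by 1 factor and leave the order as it is. Reads that began 1 to 3 bases after the commonest start were 12.6% of the arm in the nuclear library (11.8 to 13.5) and 8.74% in the cytoplasmic library (8.19 to 9.33). Such a share was higher in the nuclear library, with intervals apart, in 12 of the 209 other arms, and higher in the cytoplasmic library in 7. The other 4 member arms had overlapping intervals.

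The ratio of miR-320-3p also differed with read length. Reads of 18 to 19 nt had a ratio of 1.99 (1.44 to 2.78; 113 nuclear and 58 cytoplasmic reads), those of 20 to 21 nt 0.968 (0.878 to 1.07), and those of 22 to 23 nt 0.630 (0.607 to 0.654). Among reads from base 48 alone, those of 18 to 19 nt stood at 2.28 (1.54 to 3.44) and those of 22 nt or more at 0.622 (0.60 to 0.645). Among reads of 22 nt or more, those from base 49 or 50 stood at 0.926 (0.802 to 1.07), above the interval of those from base 48. At 20 to 21 nt the starts were close, with 0.949 from base 48 and 0.988 from base 49 or 50, and at 18 to 19 nt their intervals overlapped. The share of reads of 18 to 19 nt was higher in the nuclear library in 5 of 5 member arms and in 106 of the 209 other arms. Of the 5, miR-320-3p alone had intervals apart, and the others rested on 2 to 16 reads of that length. How many of the 209 other arms had intervals apart at that length was not counted. The commonest length was 22 nt for miR-320-3p, miR-484-5p and miR-5107-5p, 23 nt for miR-1981-5p and 24 nt for miR-877-5p. At a mean of 22.98 nt, miR-877-5p was longer than 196 of the 209 other arms.

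**Figure D4:**
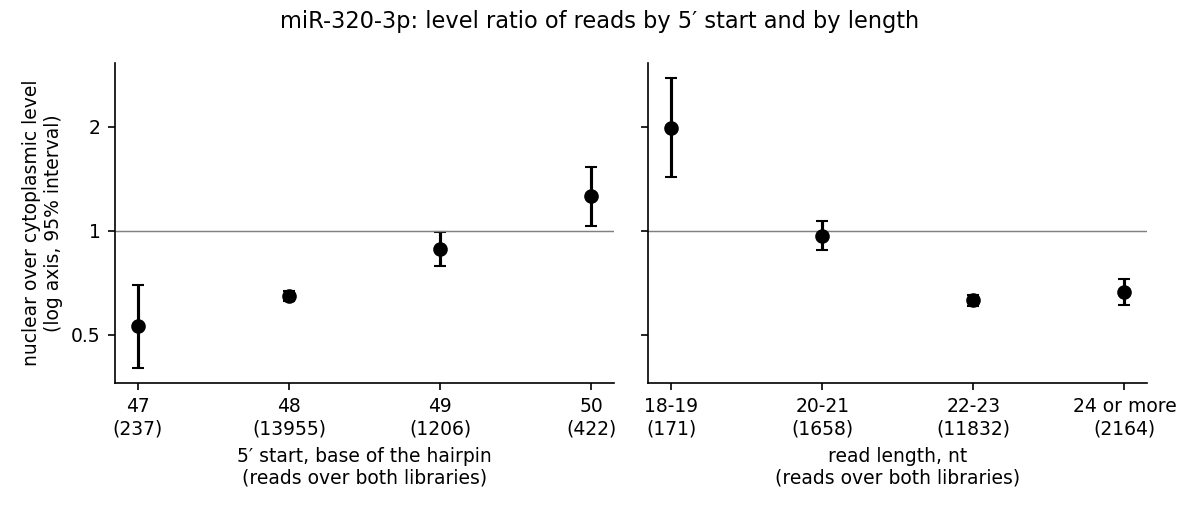
Nuclear over cytoplasmic level ratio of miR-320-3p reads (log axis, exact 95% intervals) by the hairpin base at which they begin and by read length, with the reads over both libraries in brackets. The ratio is 0.646 at the commonest start, base 48, and 1.26 at base 50, and it is 1.99 for reads of 18 to 19 nt and 0.630 for those of 22 to 23 nt.

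At the 3′ end many reads carried 1 to 3 bases past the point where their match to the hairpin stopped. As background, terminal nucleotidyl transferases can add bases to miRNAs, among them Tut4 and Tut7 for U and Tent2 for A. Unmatched bases are counted from the first mismatch in the last 3 bases of a read to its end. A mismatch there is counted in the same way as an added base. A base after a mismatch is counted even where it equals the hairpin's base. The origin of the unmatched bases was not tested. Examples are shown with the unmatched bases in capitals: the commonest U and A forms of miR-1981-5p and miR-484-5p, and the 2 commonest forms of miR-877-5p, which also had 16 reads that ended in unmatched U alone. T in the deposited sequences stands for U.
miR-1981-5p with U: gtaaaggctgggcttagacgtgT
miR-1981-5p with A: gtaaaggctgggcttagacgtgA
miR-484-5p with A: tcaggctcagtcccctcccgaA
miR-484-5p with U: tcaggctcagtcccctcccgatT
miR-877-5p with A: gtagaggagatggcgcaggggacaA
miR-877-5p with AA: gtagaggagatggcgcaggggaAA
The reads behind these 6 sequences numbered 62, 36, 17, 10, 10 and 6 over both libraries, in the order shown. In the AA form the last A equals the hairpin's base at that position, and only the base before it, A for C, differs.

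The share of reads with unmatched 3′ bases was 27.7% in miR-320-3p (27.0 to 28.4), 15.1% in miR-1981-5p (13.5 to 16.8) and 29.0% in miR-484-5p (23.2 to 35.3). It was 36.6% in miR-877-5p (29.4 to 44.3) and 47.7% in miR-5107-5p (40.5 to 54.9). The median of the 209 other arms was 14.8%, and 4 of the 5 member arms lay above their upper quartile of 25.9%. Reads with unmatched U alone made up 20.6% of miR-320-3p, 7.90% of miR-1981-5p, 10.4% of miR-484-5p, 9.30% of miR-877-5p and 12.3% of miR-5107-5p. The other arms had a median of 2.57% and an upper quartile of 8.27%, so 4 of 5 member arms exceeded that quartile and the fifth, miR-1981-5p, exceeded 156 of the 209 arms. Unmatched A alone spread more widely, from 0.708% in miR-320-3p to 18.02% in miR-877-5p, around a median of 6.44% in the other arms. In miR-320-3p the hairpin itself goes on with A after the mature end, so an added A there cannot be told from the hairpin. In the same way, an added U is not seen where a hairpin goes on with U. After the commonest read the hairpins printed above go on with C in Mir1981 and Mir877 and with A in Mir484. The other arms were not sorted by that base, so U shares of member and other arms may not be measured alike.

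Between the libraries the share with unmatched bases was compared arm by arm. In miR-320-3p it was 26.6% in the nuclear (25.5 to 27.7) and 28.4% in the cytoplasmic library (27.5 to 29.3), with intervals that overlap. Its reads with unmatched U alone were 18.9% (17.9 to 19.9) and 21.7% (20.8 to 22.5), with intervals apart. In how many of the 209 other arms the U shares had intervals apart was not counted. At 15825 reads, against a median of 313 in those arms, miR-320-3p has narrower intervals than most. A single U was the commonest unmatched end of miR-320-3p, with 2794 of its 4383 such reads, followed by UU with 367. The other 4 arms had overlapping intervals between the libraries, with the nuclear share lower in miR-484-5p, miR-877-5p and miR-5107-5p and higher in miR-1981-5p. Among the 209 other arms the share was higher in the nuclear library in 89.

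**Figure D5:**
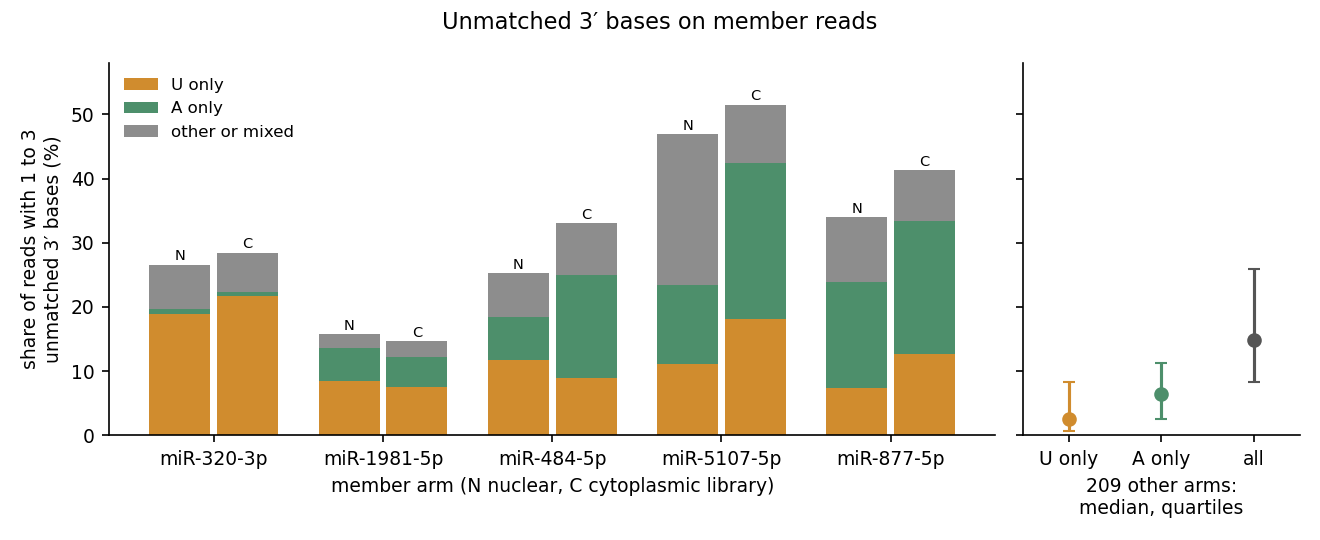
Share of reads with 1 to 3 unmatched 3′ bases (vertical axis, %) in the nuclear (N) and cytoplasmic (C) library for the 5 member arms, split into U only, A only and other or mixed bases, beside the median and quartiles of the 209 other arms. U is the main unmatched base in miR-320-3p, at 20.6% of reads over both libraries, against a median of 2.57% in the other arms. Of the 209 other arms, 191 had a lower share with U only, while some were higher, such as miR-24-3p at 29.3%. An added U is not seen where a hairpin goes on with U, and the other arms were not sorted by that base.

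Mir1981, Mir3102 and Mir877, which are whole introns, had 11 reads of the 3′ arm, of which 5 matched through the last intron base. Of the 3 reads of miR-1981-3p, 2 ran through the last intron base and went on with 1 U, and of the 7 reads of miR-3102-3p, 2 did the same. The next exon of Marc2 and of Arhgef17 begins with G in the annotated transcripts. Uridylation at the 3′ end of mirtron hairpins is known from other work, and these counts are too low to compare with other arms.

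Mir702 had 6 nuclear and 4 cytoplasmic reads, with 8 of the 10 on the 5′ arm. Of those 8, 6 began at base 10, the first base of the Plod3 intron, and 2, both nuclear, at base 11. The 2 reads of miR-702-3p were nuclear. Mir3102 had 5 nuclear and 2 cytoplasmic reads, and all 7 began at base 81. Some Arhgef17 transcripts retain this intron. All 4 reads of Mir3102 without unmatched bases match such a transcript as well, and the matched part of the other 3 was not compared with it. Mir1224, whose host Vwa5b2 had 0 exon reads in both libraries, was not detectable at this depth, where the floor of 3 reads stands at 1.5 RPM (nuclear) and 1.47 RPM (cytoplasmic).

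Reads in the exons of the host genes were counted as well. They are fragments of 18 to 39 nt and do not measure the level of the mRNA. Abcf1, host of Mir877, had 20 nuclear and 7 cytoplasmic exon reads, a ratio of 2.92 (1.18 to 8.16) with an interval that holds the 1.77 of miR-877-5p. Of these, 13 and 6 matched no other gene, at 2.21 (0.784 to 7.10), an interval that includes 1. Marc2, host of the far more abundant miR-1981-5p, had 4 and 3. Plod3 had 13 and 7, and Arhgef17 had none in this count. The count leaves out the 4 reads of Mir3102 that also match an Arhgef17 transcript with the intron retained. The neighbours of the other hairpins were as low, with 4 and 0 reads for Polr3d, 13 and 7 for Marf1, and 4 and 2 for Nde1, whose annotated start lies 3649 bases from Mir484 on the same strand. Apart from Cd74, host of Mir5107, no host or neighbour had more reads than Abcf1. Intron bases beside the hairpins were not matched, since only annotated transcripts were used here.

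Mir5107 lies in Cd74 (chr18:60812076-60812163, plus strand), the gene of the invariant chain that chaperones MHC class II molecules and is abundant in dendritic cells. It begins 154 bases into the last intron, which has 230 bases, and runs 12 bases past the intron's 3′ end into the exon, so neither of its ends is a splice site. Its main start, base 10, is intron base 164. Exon reads of Cd74 numbered 160 nuclear and 196 cytoplasmic, a ratio of 0.833 (0.672 to 1.03). The hairpin, at 5.01 (3.43 to 7.52), and the exons of the same gene thus had ratios with intervals apart. Within 100 bases of the hairpin, annotated exons held 12 nuclear and 8 cytoplasmic reads. The reads of miR-5107-5p varied in both ends: 57 distinct sequences made up 195 reads, the commonest 3′ end held 32.8% of them, and 18 reads, the highest count of any sequence, belonged to each of 2 sequences of 22 and 23 nt. Among the 209 other arms, 22 had a smaller share at the commonest 3′ end and 24 a smaller share at the commonest 5′ start.

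Beyond the 8 members, 230 other named hairpins have an end within 5 bases of an intron end. Of these, 104 had a read, 15 had at least 10 reads and 1 had at least 50, for a total of 271 nuclear and 281 cytoplasmic reads. The 3 with most reads were Mir5121 in Rpl13a (56 nuclear and 0 cytoplasmic reads), Mir3064 in Ddx5 (13 and 28) and Mir6916 in Esyt1 (13 and 16). Set against a floor of 3 reads in the cytoplasmic library, the 56 nuclear reads of Mir5121 came to a ratio of 19.1. The exact 95% interval of the ratio from 56 and 0 reads begins lower, at 14.99. Of 17 other hairpins that are whole introns, 4 had a read, and the highest was Mir7091 in Dnase1l1 with 6 and 15. By comparison, the member Mir1981 alone had 1852 reads.

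Of 12 other hairpins, listed by name because they are described elsewhere as made without Drosha, 7 had 0 reads: the 6 of the Mir344 group and Mir1982. The remaining 5 had at least 50 reads, namely Mir1839 (2169 nuclear and 4676 cytoplasmic), Mir6236 (379 and 53), Mir664 (24 and 145), Mir1934 (133 and 20) and Mir1983 (33 and 58). Whether any of the 12 is made without Drosha was not tested here, and read counts do not show it. Fragments of the pathway's own mRNAs were rare. Of 16 genes listed, 1 reached 50 reads: Ago2, the effector that holds the mature miRNA, with 35 nuclear and 18 cytoplasmic reads. Dicer1 had 17 and 4, Tut7 22 and 9, Tut4 2 and 4, and the exporter Xpo1 9 and 6. Drosha and Dbr1, the debranching enzyme, had 0 reads in both libraries, so their mRNA fragments were not detectable at this depth. Counts of fragments of 18 to 39 nt do not measure the mRNA or protein of these enzymes.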

How the data were processed

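The authors' deposited table lists 538100 distinct sequences with values in RPM for each library. CASAVA and the build mm10 are named in the submitters' processing notes. How reads were trimmed, aligned and filtered is not given in the sources used here. Columns were assigned to the nuclear and cytoplasmic samples by their last letter. All values above 0 were whole multiples of 1 read (tolerance 0.1 read), so whole reads were recovered.

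Sequences of 18 nt or more were matched to GENCODE vM21 transcripts with Python 3.11.15. Reads were assigned to an arm by their centre, and sequences of several miRNAs to the one with most reads of its own. Log2 ratios use a pseudocount of 0.5 reads, and intervals are Clopper-Pearson (SciPy 1.17.1), for ratios conditional on the reads of both libraries. TMM factors came from edgeR 4.0.16. Its count test was not run, since 1 library per group gives no estimate of the spread between libraries. The calling rule was tested on simulated counts that held counting error alone, so that test does not cover variation between libraries. Alternatives covered scaling, 3′ matching, starts, lengths, shared sequences, the read minimum, the calling rule and the pseudocount.

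Named items were all 8 hairpins, their arms of at least 10 reads in full, and the lists printed above, chosen with earlier results of these data known. The nearest arm was taken among arms of 0.5 to 2 times the reads. Cell markers were miR-223, 142, 155 and 146 (myeloid), 122 (hepatocyte), 1a and 133a (muscle), miR-451a and miR-144 (erythroid), 126a (endothelial), 143, 145a and 199a (stromal), 200a, 200b, 200c and 141 (epithelial), 150 (lymphoid), 124 and 9 (neural).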

Additional observations from a re-analysis of the deposited data

How the results depend on the processing

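The counts of calls and the median depended on the library scaling. Against 1 arm higher and 0 lower with RPM, 2 member arms were called lower with TMM factors and with the median of ratios, and 3 were called higher when scaled to the miRNA total. The 209 other arms moved alike: 60 were lower with RPM, 120 with TMM factors, 133 with the median of ratios and 9 with the miRNA total, where 42 were higher against 23 with RPM. The members' median log2 ratio, 0.12 with RPM, was -0.33, -0.43 and 1.02 under the same 3 scalings, and that of the other arms was -1.09, -1.19 and 0.26 against -0.64. Scaling shifted all log2 ratios by -0.45, -0.54 or 0.91. Calling on the interval alone gave 2 member arms higher and 2 lower, and 35 of the 209 other arms higher and 138 lower. The counts of calls were unchanged with full-length matches only, up to 1 unmatched base, and starts within 1 base of the commonest. They were also unchanged with lengths of 20 to 24 nt, unshared sequences and a minimum of 10 reads. Unshared sequences and that minimum left the reads of the measured member arms as they were, so the members' counts could not change. A pseudocount of 1 read was applied to the log2 ratios and not to the calls. Under all of these the median stayed between 0.07 and 0.27. The arm miR-5107-5p was called higher in 11 of 11 settings, the main one included, with log2 ratios of 1.77 to 3.21. Its call could not change with unshared sequences, the minimum of 10 reads or the pseudocount of 1 read. In these its reads stayed 162 and 33, and calls kept the pseudocount of 0.5 reads. Counting each distinct sequence once lowered the share at the commonest start of miR-320-3p to 50.6%. No paired analysis was possible because each group held 1 library, and for the same reason no library could be left out. With 33 to 162 reads a library, ratios of miR-877-5p, miR-484-5p and miR-5107-5p rest on wide intervals, and the reads of Mir702 and Mir3102 are too few for a ratio to be given.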
